A study of Caenorhabditis elegans with 3 samples.

Results

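Translation factors are the proteins that start and extend protein synthesis on the ribosome, and their genes in the nematode Caenorhabditis elegans were examined for binding of DPL-1. The 37 genes were chosen by their names in the WBcel235 annotation, as every protein-coding gene whose symbol starts with eif-, eef-, ife- or ifg-, out of 19985 protein-coding genes in all. For each gene the peak described was selected on its measured signal, as the strongest peak summit within 500 bp of the gene's 5' end, so the signals and distances given below describe that choice and carry no test. The set held 26 initiation genes (the eif- genes and ifg-1), 6 elongation genes (eef-) and 5 genes for the cap-binding protein eIF4E (ife-).

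DPL-1 was mapped by chromatin immunoprecipitation and sequencing in whole young adult hermaphrodites of the transgenic strain YL507, whose DPL-1 protein ends in a GFP-FLAG tag, using an antibody to GFP by the sample descriptions, although the labels' antibody entry reads dpl-1. The 3 samples were biological replicates 1, 2 and 3 of this 1 group and of 1 strain, and their age is listed as unknown. No input or untagged sample was analysed here, and the sources used here do not say whether the animals also made untagged DPL-1. Whole worms mix germline and soma, so a peak cannot be assigned to a tissue.

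DPL-1 is the worm DP protein, which forms a heterodimer with E2F proteins such as EFL-1 and, with the retinoblastoma-like protein LIN-35, belongs to the DREAM complex that represses cell cycle genes. In initiation, eIF2 carries the initiator tRNA, eIF2B reloads eIF2 with GTP, eIF3 is the large scaffold on the small ribosomal subunit, and eIF4E and eIF4G recruit the capped mRNA. In elongation, eEF1A delivers aminoacyl-tRNA, the eEF1B subunits recharge eEF1A with GTP, and eEF2 moves the ribosome along the mRNA.

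The sequences under 10 of the peaks are shown, to set 3 initiation gene summits with an E2F-like match (eif-2A with signal 75.0, eif-2Bdelta with 104 and eif-3.D with 112) beside those of elongation and eIF4E genes without one. They were picked by this match, so the panel does not compare the classes. Within 50 bp of the summit an E2F-like match lay at 3 of the 15 initiation peaks. Among the 6 elongation peaks it lay at 1, eef-2. Over all 23 translation factor peaks the share was 17.4%, against 17.9% of the 1833 peak summits at protein-coding 5' ends. The strongest pair of peaks, at eif-3.C and eef-2, is not among the 10 sequences. Each is the 101 bases centred on the summit, on ce11, 5' to 3' on the strand of the translation factor gene. In the first 3, capitals mark the E2F-like motif (TTNNCGC on either strand, where the inner pair NN is made up of C or G alone).

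eif-2A, chrII:10416632-10416732, plus strand: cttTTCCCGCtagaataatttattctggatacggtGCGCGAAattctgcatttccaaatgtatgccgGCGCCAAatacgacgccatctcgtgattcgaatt
eif-2Bdelta, chrV:9513751-9513851, plus strand: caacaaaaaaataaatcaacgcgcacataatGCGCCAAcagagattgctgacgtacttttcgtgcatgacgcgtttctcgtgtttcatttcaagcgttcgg
eif-3.D, chrIII:8971783-8971883, minus strand: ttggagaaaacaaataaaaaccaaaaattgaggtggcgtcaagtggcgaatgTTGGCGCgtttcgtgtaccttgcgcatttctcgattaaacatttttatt

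In the next 7, which hold no E2F-like match, capitals mark the cell cycle homology region (CHR) letters TTTGAA or TTCGAA on either strand, the element bound by the DREAM subunit LIN-54. The last 3 hold neither. Of the 3 sequences above, eif-2A also holds TTCGAA, left in lower case there, and eif-2Bdelta and eif-3.D hold no CHR letters.

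eef-1A.1, chrIII:6972055-6972155, minus strand: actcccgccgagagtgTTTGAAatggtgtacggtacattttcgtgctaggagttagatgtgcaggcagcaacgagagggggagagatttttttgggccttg
eef-1B.1, chrIII:7973334-7973434, minus strand: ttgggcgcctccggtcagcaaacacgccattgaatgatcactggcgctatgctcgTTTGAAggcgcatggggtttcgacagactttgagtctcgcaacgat
eef-1A.2, chrX:7823253-7823353, plus strand: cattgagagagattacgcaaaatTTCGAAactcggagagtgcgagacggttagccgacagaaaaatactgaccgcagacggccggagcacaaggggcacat
ife-3, chrV:8214-8314, minus strand: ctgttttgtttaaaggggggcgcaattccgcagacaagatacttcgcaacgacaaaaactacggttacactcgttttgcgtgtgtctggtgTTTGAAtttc
eef-1G, chrV:10965647-10965747, plus strand: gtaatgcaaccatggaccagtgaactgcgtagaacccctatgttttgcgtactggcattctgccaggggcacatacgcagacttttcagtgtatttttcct
eef-1B.2, chrIV:15037147-15037247, plus strand: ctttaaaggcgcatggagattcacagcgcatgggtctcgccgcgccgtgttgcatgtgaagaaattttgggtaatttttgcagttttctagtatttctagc
ife-2, chrX:382839-382939, minus strand: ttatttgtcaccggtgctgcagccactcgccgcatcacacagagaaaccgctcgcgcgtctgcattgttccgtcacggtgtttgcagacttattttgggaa

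DPL-1 had a peak at the 5' end of 23 of the 37 translation factor genes (62.2%), against 11.8% of all protein-coding genes. A peak was counted from the authors' optimal list of 3295 peaks, made with the irreproducible discovery rate (IDR) procedure, which compares peak ranks between replicates. A single peak of this list need not rank alike in every replicate, as the replicate ranks below show. The 23 genes had 23 separate peaks, so no peak served more than 1 of them, and no gene had a second IDR summit in its window. All 6 elongation genes had a peak, as did 15 of the 26 initiation genes (57.7%) and 2 of the 5 eIF4E genes (40.0%). With so few genes per class, and with genes not being replicates, the shares of the classes were not tested against each other.

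The strength of the peaks was compared by the authors' signal value, whose scale holds within a list only. The 23 translation factor peaks had a median signal of 148 and a median rank of 722 among the 3295, against a median signal of 102 and a median rank of 1233 over all genes with a peak. Of the 23, 12 (52.2%) lay in the strongest 25% of the list, against 36.8% of all genes with a peak. The 3295 IDR peaks were exactly the 3295 strongest peaks of the relaxed list made from the pooled replicates, down to a signal of 45.7, so membership of the list was a matter of pooled signal. The weakest translation factor peak inside it was at eif-2Balpha (signal 57.1), and the strongest one outside it was at eif-2D (signal 42.6 in the pooled list).

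**Figure D1:**
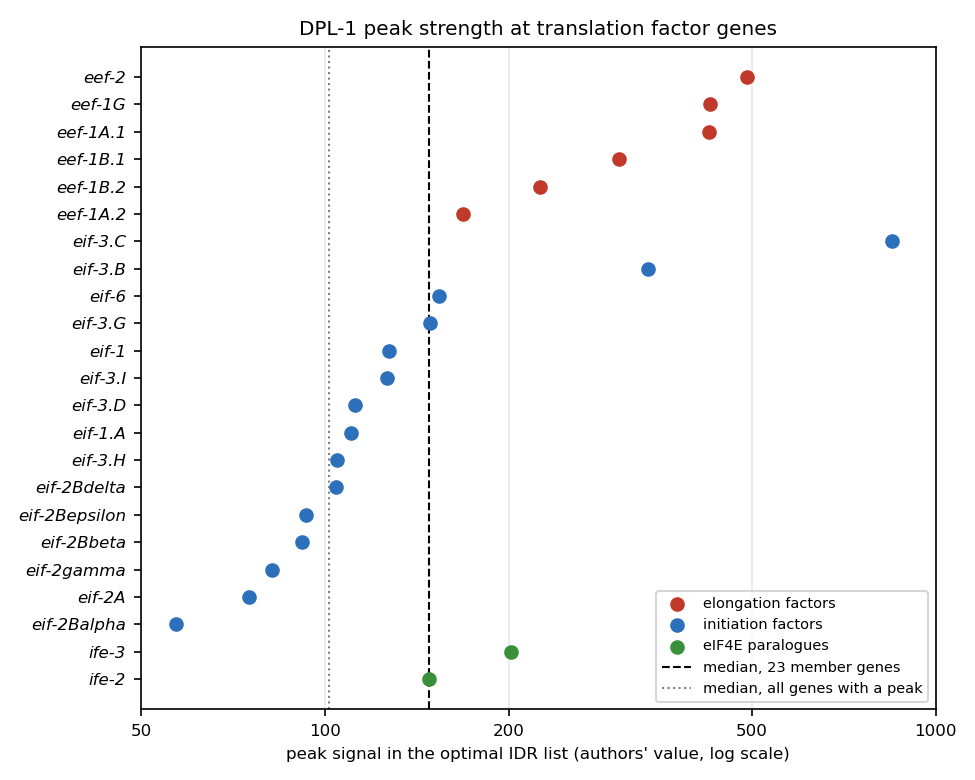
Signal of the strongest IDR peak (horizontal log axis, authors' value) at each of the 23 translation factor genes with a peak, coloured by class, with the median over the 23 genes (dashed) and over all protein-coding genes with a peak (dotted). All 6 elongation genes lie right of the dashed line at 148, and eif-3.C has the highest signal, 847.

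The elongation genes carried strong peaks as a group, with signals between 168 and 491 and a median rank of 139.5. The peak at eef-2, the gene of the translocation factor eEF2 (chromosome I, peak 9163380 to 9163680), had signal 491 and rank 73, and it ranked 109, 77 and 62 in replicates 1, 2 and 3. Its summit lay 11 bp upstream of the 5' end. It was the strongest of the elongation peaks in the IDR list, and in replicates 1 and 2 other elongation genes ranked above it.

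The 3 genes of the eEF1B exchange factor each had a peak within 134 bp of the 5' end. At eef-1G, the gamma subunit (V, 10965568 to 10965821), the summit lay 22 bp upstream, with signal 428, rank 96 and replicate ranks of 101, 105 and 117. At eef-1B.1 (III, 7973275 to 7973491) it lay 2 bp inside the gene, in its 5' UTR, with signal 302, rank 182 and replicate ranks of 261, 213 and 196. This was the only one of the 23 summits inside an annotated gene and the only one downstream of the 5' end. At eef-1B.2 (IV, 15037080 to 15037311) it lay 134 bp upstream, with signal 225, rank 329 and replicate ranks of 634, 264 and 303.

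Both eEF1A genes had their summit further out than the other elongation genes did. At eef-1A.1 (III, 6971954 to 6972238) the summit lay 393 bp upstream, with signal 426, rank 97 and replicate ranks of 230, 74 and 121. At eef-1A.2 (X, 7823216 to 7823421) it lay 351 bp upstream, with signal 168, rank 572 and replicate ranks of 773, 525 and 1135. The eef-1A.1 peak ranked above the eef-1A.2 peak in every replicate. Its summit, however, lay nearer to the 5' end of a neighbouring gene, rfc-4 (148 bp), than to that of eef-1A.1. No other protein-coding 5' end lay within 500 bp of the eef-1A.2 summit.

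Among the initiation genes, eIF3 held both the strongest peak of the whole set and genes with no peak. Of 11 eif-3 genes, 6 had an IDR peak, with signals of 105 to 847 and summits 207 to 331 bp upstream. At eif-3.C, a core eIF3 subunit (I, 9979756 to 9980055), the summit lay 245 bp upstream, with signal 847 and rank 26. Its replicate ranks were 26, 33 and 23, above those of every other translation factor gene in each replicate, and no other protein-coding 5' end lay within 500 bp of it.

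Next in eIF3 came eif-3.B (II, 14794990 to 14795301, 239 bp upstream), with signal 338, rank 151 and replicate ranks of 141, 141 and 241. The eif-3.G peak (II, 8442341 to 8442532, 331 bp upstream) had signal 149, rank 715 and replicate ranks of 1201, 752 and 679. The 3 weaker eIF3 peaks were at eif-3.I (signal 126), eif-3.D (112) and eif-3.H (105). The eif-3.H peak ranked 6086 in replicate 1, against 1098 and 1171 in replicates 2 and 3, so it was outside the top 3295 in replicate 1 alone.

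The eIF2B peaks lay near or below the median signal of 102 over all genes with a peak. Peaks were present at 4 of 5 eIF2B genes, namely eif-2Bdelta (signal 104), eif-2Bepsilon (92.9), eif-2Bbeta (91.6) and eif-2Balpha (57.1), with ranks of 1190 to 2587. Their replicate ranks were 1437, 1689 and 1524 at eif-2Bdelta, the most even of the 4, and 2571, 1185 and 4365 at eif-2Bepsilon. They were 3680, 1132 and 1834 at eif-2Bbeta. At eif-2Balpha they were 3220 and 2279, with no summit within 100 bp of the IDR summit in replicate 3. Of the 3 eIF2 genes only eif-2gamma had a peak (signal 82.0, rank 1687, 113 bp upstream). It was also the least replicated of the 23, with rank 990 in replicate 2, rank 15694 in replicate 3 and no summit within 100 bp of the IDR summit in replicate 1.

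Of the 6 initiation genes outside these complexes, with ifg-1 left aside, 4 had a peak. They were eif-6, whose protein keeps ribosomal subunits apart (I, 12968508 to 12968703, 337 bp upstream, signal 154, rank 678, replicate ranks 830, 615 and 1786), and eif-1, which guards start codon selection (II, 4993952 to 4994036, 403 bp upstream, signal 127, rank 892, replicate ranks 1278, 940 and 1024). Both peaks had a neighbouring gene closer than the translation factor gene, as described below. The other pair was eif-1.A, a partner of eIF1 in scanning (signal 110.3), and eif-2A (signal 75.0). The eif-2A peak had no matching summit in replicate 1 and ranked 1908 and 1481 in replicates 2 and 3, and the eif-1.A peak ranked 2884, 798 and 7896.

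In the IDR list the eIF4E paralogues split, with peaks at ife-3 and ife-2 and none at ife-1, ife-4 and ife-5. IFE-1, IFE-3 and IFE-5 are known from the worm germline, and IFE-2 and IFE-4 from somatic tissue, which does not mean that each is confined there. The ife-3 peak (V, 8155 to 8381, 436 bp upstream) had signal 202 and rank 405. It ranked 300 and 611 in replicates 2 and 3 but 5035 in replicate 1, outside the top 3295 there. The ife-2 peak (X, 382833 to 382991, 180 bp upstream) was weaker, with signal 148 and rank 722, and more even, with replicate ranks of 823, 877 and 944. The gene of their partner eIF4G, ifg-1, had no IDR peak, and its best summits ranked 3978 in replicate 2 and 5430 in replicate 3, with none in replicate 1. Its pooled summit ranked 14831 (signal 14.6).

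The 3 eIF4E genes without an IDR peak had weak summits only. The best summit at ife-1 ranked 9817 and 14685 in replicates 2 and 3, with none in replicate 1, and 9363 in the pooled list (signal 20.3). At ife-4 it ranked 3952 and 7127 in replicates 1 and 3, and at ife-5 9256 and 17059, with none in replicate 2 or in the pooled list for either gene. None of these reached the top 3295 of any replicate. In replicate 1, however, the ife-4 summit (rank 3952) stood above that of ife-3 (rank 5035).

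**Figure D2:**
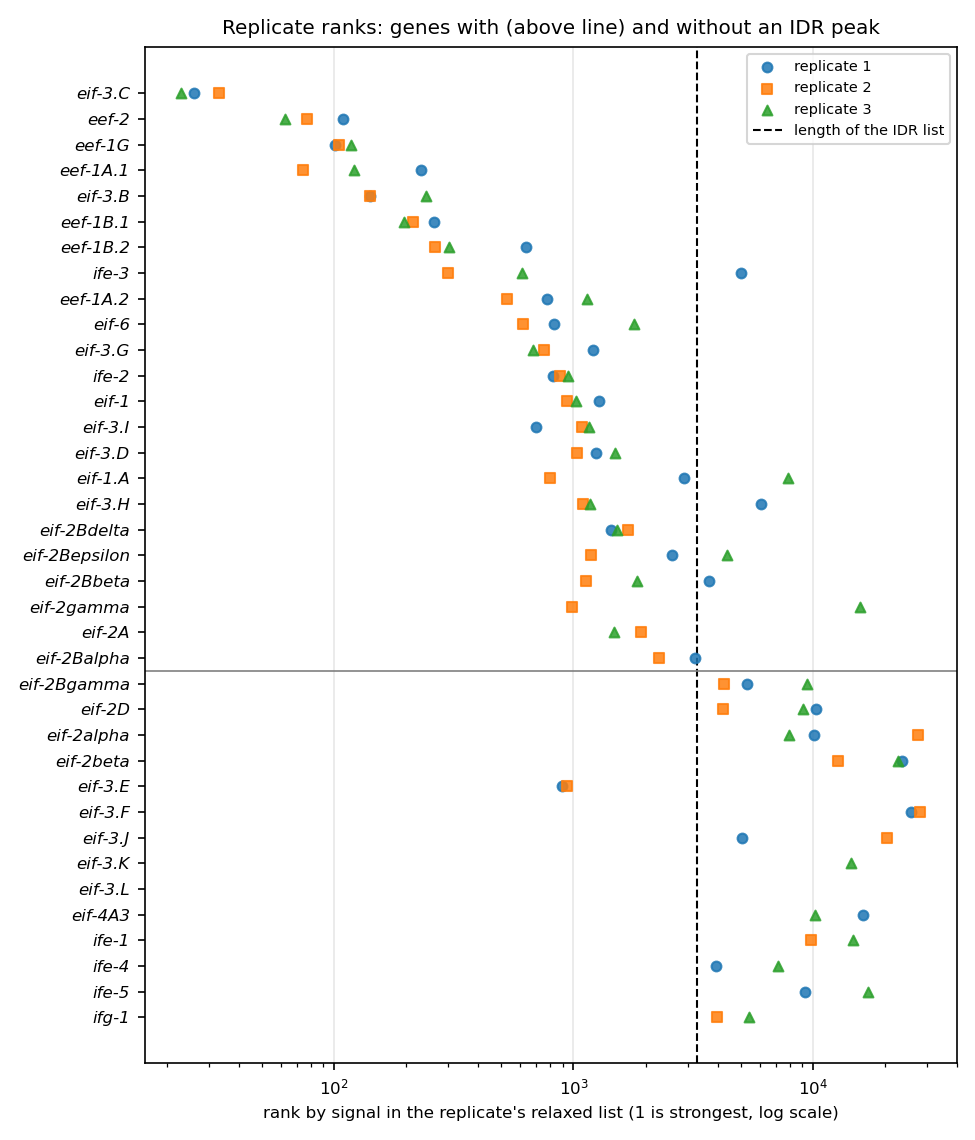
Rank by signal in the relaxed list of each replicate (horizontal log axis, 1 is strongest) for the summit at each of the 37 genes. Genes with an IDR peak are above the grey line in order of IDR signal, and those without one are below it. A missing marker above the line means no summit within 100 bp of the IDR summit. Below the line it means no summit within 500 bp of the 5' end. The dashed line is at 3295, and below the grey line only eif-3.E has markers left of it.

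The replicates' own lists gave the same order of classes as the IDR list, though initiation (42.3%) and eIF4E genes (40.0%) were nearly level in replicate 3. Their relaxed lists held 28383, 30000 and 30000 peaks for replicates 1, 2 and 3, so ranks were read only against the strongest 3295 of each. By those top lists, 19 of the 37 genes (51.4%) had a summit at the 5' end in replicate 1, 24 (64.9%) in replicate 2 and 19 (51.4%) in replicate 3, against 9.94%, 11.7% and 10.3% of all protein-coding genes. The mean was 55.9% ± 7.79 for the translation factor genes and 10.6% ± 0.93 for all protein-coding genes (SD, n = 3 each). Elongation genes had a summit at 6 of 6 in each replicate, initiation genes at 12, 16 and 11 of 26, and eIF4E genes at 1, 2 and 2 of 5.

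Most of the IDR peaks were also strong in all replicates. Of the 23 peaks, 15 were in the top 3295 of every replicate, 7 in that of 2 replicates and 1, at eif-2gamma, in that of 1. The 15 are 65.2% of the translation factor peaks, against 50.9% for all genes with a peak. All 6 elongation peaks were among the 15, as were ife-2 and 8 initiation peaks. The share of all 37 genes with such a peak was 40.5%, against 5.99% of all protein-coding genes. The IDR list was built from these same replicates, so this is no independent check of it.

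The 14 genes without an IDR peak were eif-2alpha, eif-2beta, eif-2Bgamma, eif-2D, eif-3.E, eif-3.F, eif-3.J, eif-3.K, eif-3.L, eif-4A3, ifg-1, ife-1, ife-4 and ife-5. Of these, eif-4A3 encodes a helicase of the exon junction complex rather than a general initiation factor. In the pooled relaxed list, 31 of all 37 genes had a summit in the window, against 33.0% of all protein-coding genes. Of the 14, 8 had one, the strongest at eif-2D (rank 3584), eif-4A3 (4152), eif-2alpha (5853) and eif-2Bgamma (5967). The best replicate rank was 4232 at eif-2D, 4247 at eif-2Bgamma, 5049 at eif-3.J and 7983 at eif-2alpha. For eif-4A3 it was 10175, for eif-2beta 12690, for eif-3.K 14400 and for eif-3.F 25713. These were weak, and at eif-3.L no replicate had any summit.

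The exception was eif-3.E, another eIF3 subunit. Its summit ranked 894 in replicate 1 and 936 in replicate 2, at -177 and -209 bp from the 5' end (negative is upstream), but replicate 3 and the pooled list had no summit in the window at all. It was the only one of the 14 genes in the top 3295 of any replicate.

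No translation factor gene had its nearest IDR summit just beyond the 500 bp limit. The furthest summit counted was that of ife-3 at 436 bp, and the nearest IDR summits beyond 500 bp lay at 757 bp from the 5' end of eif-2beta, -926 bp from that of eif-2Bgamma and -946 bp from that of eif-3.J (negative is upstream). Within 250 bp of the 5' end, 15 of the 37 genes (40.5%) had an IDR summit, against 7.71% of all protein-coding genes. Of the 23 summits, 22 (95.7%) lay upstream, against 90.5% for all genes with a peak, and the median distance was 207 bp, against 193 bp. The 5' end is that of the gene record, which in worms often marks a trans-splice site downstream of the true transcription start.

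**Figure D3:**
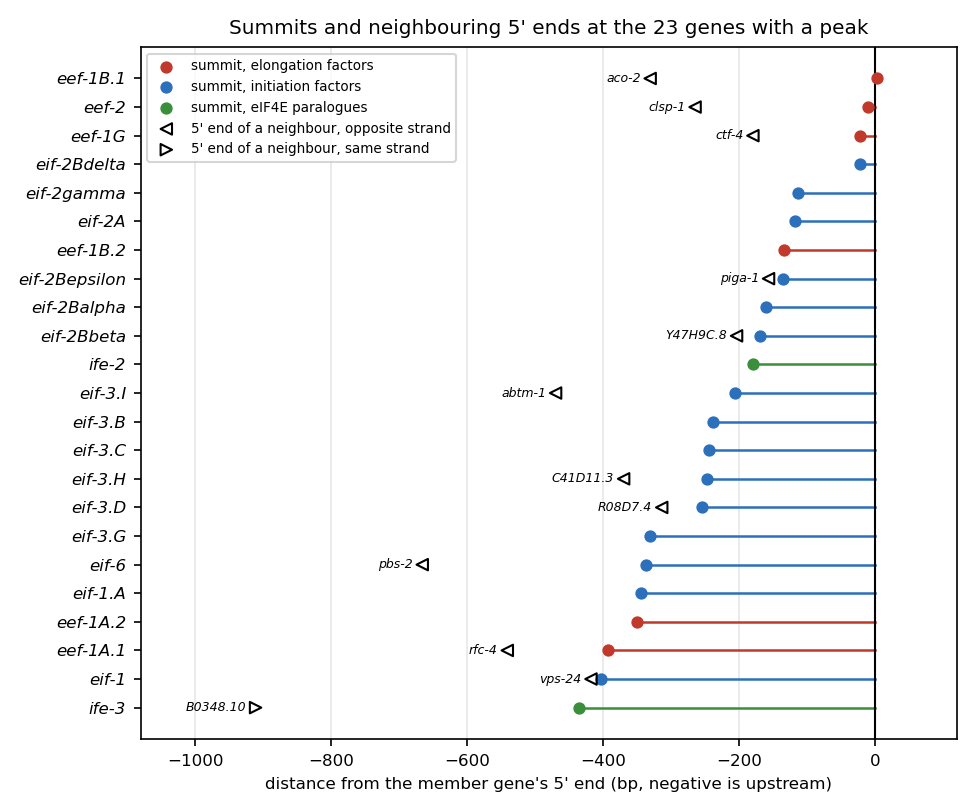
Position of the IDR summit (filled circles) relative to the 5' end of each of the 23 genes (vertical line at 0, in bp, negative is upstream), with open triangles for 5' ends of other protein-coding genes within 500 bp of the same summit. The 4 summits nearest to the 5' end include those of eef-1B.1, eef-2 and eef-1G, at 2, 11 and 22 bp.

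Many of the peaks lay near the 5' end of a neighbouring gene as well. At 12 of the 23 genes (52.2%) another protein-coding 5' end lay within 500 bp of the summit, against 46.3% of all genes with a peak. In 11 of the 12 cases the neighbour was on the opposite strand. The translation factor gene had the nearest 5' end at 16 of the 23 summits (69.6%), against 76.6% for all genes with a peak, and at the other 7 the neighbour was nearer.

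Of the 6 elongation genes, 4 shared their peak. The eef-1A.1 summit lay 148 bp from the 5' end of rfc-4, a subunit of the DNA clamp loader, and so nearer to it than to eef-1A.1. The eef-1G summit lay 158 bp from ctf-4, which encodes a replisome factor, and the eef-2 summit lay 254 bp from clsp-1, the gene of the checkpoint adaptor claspin. The eef-1B.1 summit lay 333 bp from aco-2, which encodes mitochondrial aconitase. The summits at eef-1G, eef-2 and eef-1B.1 were nearer to the elongation gene, at 22, 11 and 2 bp. Which gene of a pair a peak acts on cannot be read from its position.

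Among initiation genes, 7 shared a peak, and at 6 of them the neighbour's 5' end was nearer. The eif-1 summit lay 15 bp from vps-24, an ESCRT-III membrane-remodelling gene, the eif-2Bepsilon summit 21 bp from piga-1, a gene of GPI anchor synthesis, and the eif-2Bbeta summit 34 bp from Y47H9C.8. The others were eif-3.D (59 bp from R08D7.4), eif-3.H (122 bp from C41D11.3) and eif-6 (337 bp from eif-6, against 329 bp from the proteasome gene pbs-2). Only at eif-3.I was the translation factor nearer, at 207 bp, against 263 bp for the mitochondrial transporter gene abtm-1. The ife-3 summit was the case on the same strand, 475 bp downstream of the 5' end of B0348.10.

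Some worm genes lie downstream in operons and are transcribed from a promoter further away. Operon-like runs were marked by a rule on the annotation, an upstream gene on the same strand ending within 500 bp. Inside such a run lay 7 of the 37 genes, against 4010 of all 19985 protein-coding genes. The rule does not show that a run is an operon. Of these 7, 2 had a peak of their own (eif-3.C and eif-2gamma), against 21 of the other 30. Among the 5 without one, the first gene of the run had an IDR peak in 3 cases: phb-1, a prohibitin gene, ahead of eif-2alpha (signal 151), sod-1, a superoxide dismutase gene, ahead of eif-2Bgamma (signal 139) and nud-1 ahead of ife-1 (signal 52.5). The runs of eif-3.F and ife-5 had none. The first gene also had a peak in both runs whose translation factor gene had its own, at sys-1 ahead of eif-3.C (signal 51.2) and Y39G10AR.9 ahead of eif-2gamma (signal 86.0). Over all protein-coding genes inside a run, the first gene had a peak for 24.8%, and for 23.4% of those without a peak of their own. Over all protein-coding genes, 9.28% of those inside a run had a peak at the 5' end, against 12.4% of the others.

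How often the motifs occurred, relative to all peaks at gene starts, depended on the width searched. The E2F-like motif lay within 50 bp of the summit at 4 of the 23 genes (17.4%), against 17.9% of the 1833 IDR summits at protein-coding 5' ends. Beside the 3 sequences printed above it was found at eef-2, and at eif-2A it occurred 3 times. The same letters read backwards were found at 0 of 23 (10.5% of all). The CHR letters were found at 10 of the 23 (43.5%, against 31.2% of all), and their backwards control at 0 of 23 (9.66% of all). Within 100 bp the E2F-like motif was found at 34.8% of the 23, against 24.1% of all, and its backwards control at 4.35%, against 13.6%. Within 100 bp the CHR letters were found at 52.2%, against 55.2% of all, so their order turned, and their backwards control at 13.0%, against 23.6%. The 6 strongest peaks held 1 with an E2F-like match, eef-2, and eif-3.C had neither motif. A missing match says only that these letters are not in the window. Mean GC content within 50 bp of the summit was 44.5% ± 7.62 (SD over 23 genes), against 45.9% ± 7.52 (SD over the 1833 summits).

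Other parts of the translation machinery were looked up from a list of 22 symbols. The annotation held 19 of these as protein-coding genes. Of the 19, 10 (52.6%) carried an IDR peak within 500 bp, against 11.8% of all protein-coding genes. The strongest were at iff-2, which encodes eIF5A (signal 779, rank 29, 70 bp upstream), drr-2, an eIF4H-like gene (signal 462, rank 87), and gcn-1, an activator of the eIF2 kinase GCN2 (signal 342, rank 146). Peaks were absent at the eIF3 genes egl-45 and cif-1 and at 7 others of the list. The 62.2% of translation factor genes with a peak stand beside 87.2% of 78 cytosolic ribosomal protein genes, 66.7% of 33 proteasome genes and 28.1% of 32 aminoacyl-tRNA synthetase genes. The median signal of 148 at translation factor genes stands beside 188 at the ribosomal protein genes, 123 at the proteasome genes and 79.9 at the synthetase genes. Over all protein-coding genes with a peak it was 102. These differences between groups of genes were not tested.

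**Figure D4:**
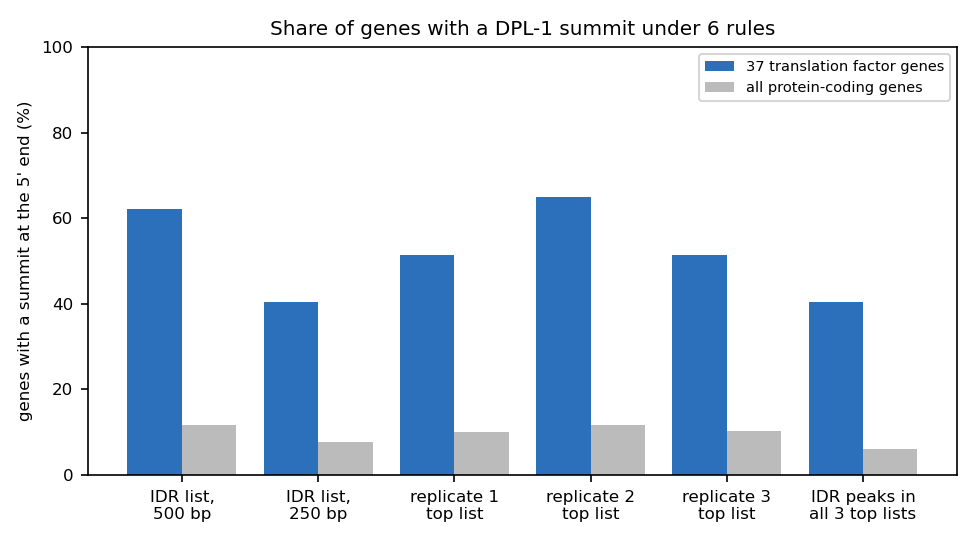
Share of the 37 translation factor genes (left bars) and of all 19985 protein-coding genes (right bars) with a DPL-1 summit at the 5' end under 6 rules. The left bars lie between 40.5% and 64.9%, the right bars between 5.99% and 11.8%.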

How the data were processed

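Peak lists from 3 biological replicates of 1 group were used on ce11. Per the text deposited with each sample, the authors derived relaxed peak lists, background regions included, from each replicate's alignments and from the pooled alignments, each with 1 further file, and from these lists an optimal IDR-thresholded list. The sources used here give no peak caller, tool version, normalization or read number, so the depth is unknown. The deposited signal value of each peak was used only within its own list. The summit was the start plus the deposited offset column.

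Genes came from Ensembl release 115 (WBcel235) and sequence from the RefSeq genome of that assembly. Coordinates are 1-based. A summit counted within 500 bp of the start of the gene record, and replicate summits matched within 100 bp of the IDR summit, or within 500 bp of the 5' end for genes without one. Replicate top lists held 3295 peaks. Motif matches lay within 50 bp of the summit. The ce10 lists were not used, and a planned comparison of paralogue proteins was not made.

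Members, lists and rules were chosen with earlier results of these data known. Every member is named. Full values are given for the 12 highest signals, all elongation and eIF4E genes and ifg-1, and the best replicate rank for other genes without a peak. No test was made, because there is 1 group and no control sample was analysed here. Only the choice of the strongest summit and the motif search were tested, on planted summits and on a short made-up sequence. Python 3.11.15, pandas 2.3.3 and numpy 2.4.6 were used.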

Additional observations from a re-analysis of the deposited data

How the results depend on the processing

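Counts depended on the distance, on the gene assigned to a summit and on which replicates had to hold a peak. Within 250 bp the total was 15 genes, with 1 eIF4E gene, a median rank of 900 and a median distance of 136 bp. Within 1000 bp the median rank was 838 and the median distance 242 bp. Counting only the nearest gene of each summit gave 16 of the 37 genes, against 9.04% of all protein-coding genes. Of these 16, 9 were initiation genes, and the median rank was 643.5 and the median distance 170.5 bp. Using any transcript start gave a median rank of 807, and the stronger 50% of IDR peaks a median distance of 242 bp. IDR peaks in the top lists of all 3 replicates gave 15 genes, with 8 initiation genes and 1 eIF4E gene, a median rank of 550 and a median distance of 239 bp. The replicates' own top lists gave median ranks of 823, 837.5 and 944, with 1 eIF4E gene in replicate 1 and a median distance of 238 bp in replicate 3.

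Leaving out each replicate in turn gave 15 to 19 genes in all (against 6.28% to 7.58% of all protein-coding genes), 8 to 11 initiation genes, 1 to 2 eIF4E genes, median ranks of 553 to 670.5 and median distances of 223 to 239 bp. For this, IDR peaks had to be in the top lists of the remaining pair, and the total fell to 15 only without replicate 2. The lower eIF4E count came without replicate 2 or replicate 3. The cause of these shifts was not tested. Elongation genes stayed at 6 of 6 except within 250 bp (4) and with the nearest gene only (5). Within 100 bp of the summit the E2F-like motif was found at 8 of 23 genes (34.8%, against 24.1% of all). No paired analysis was possible because the samples form 1 group. Unknown depth limits what a missing peak shows.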

Other observations

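Reading the windows of the translation factor summits, printed or not, drew attention to letters that recur at several of them and belong to neither motif. GCAGAC, on either strand within 50 bp of the summit, was found at 4 of the 23 translation factor genes (17.4%), namely eef-1G, eef-1A.2, ife-2 and ife-3, against 9.38% of the 1833 IDR summits at gene starts. In windows 300 bp to the left the shares were 4.35% and 2.62%. GCGCATG was found at 3 of the 23 (13.0%), at eef-1B.1, eef-1B.2 and eif-2gamma, against 2.89% of the 1833, and at 0 of 23 and 0.382% of the left windows. Both were picked after the sequences were seen and have no test.

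The eif-3.E pattern was not confined to that gene. Of 1576 protein-coding genes with a summit in the top 3295 of both replicate 1 and replicate 2, 39 had no summit in the pooled relaxed list, and 12 of those had none in the relaxed list of replicate 3 either. Beside eif-3.E these included the proteasome gene rpt-5 and the dosage compensation gene sdc-2. The reason was not tested.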
